A study of Mus musculus with 12 samples.

Results

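Platelet and megakaryocyte genes were followed in the spleens of 12 mice on 3 diets. They were 10 named genes, namely the granule proteins Pf4, Ppbp and Vwf, the adhesion receptor chains Gp1ba, Gp1bb, Gp9, Itga2b and Itgb3, the thrombin receptor gene F2rl2 and the lipoxygenase gene Alox12. Probes were matched by gene symbol, and each gene was represented by the probe with the highest mean over the 12 mice. Of the 10 genes, 9 had a probe, 14 probes in all, among 19057 genes and 45281 probes on the array. Gp1ba was not analysed here. The genes were proposed with earlier results of these data known, so their differences between the diets are a description of chosen genes.

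Platelets are cell fragments that megakaryocytes shed into the blood, and they stop bleeding by sticking to injured vessel walls and to each other. The spleen stores a part of the circulating platelets in its red pulp, and in the mouse it also makes red cells, neutrophils and platelets throughout life. Alox12 encodes the platelet 12-lipoxygenase, which oxygenates arachidonic acid and also EPA and DHA.

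Male C57Bl/6J mice received 1 of 3 diets, with 4 mice in each diet group and a separate array for each mouse. HFD-ED was a high-fat diet in which part of the corn oil was replaced by triglycerides of EPA and DHA, which are long-chain fatty acids of fish oil. HFD-CO was the high-fat diet with corn oil, and the control diet was low in fat. Both high-fat diets held added cholesterol, and all 3 diets held coconut oil, the control diet less. The mice on arrays had been picked from larger groups by body weight and plasma lipids, and the labels do not give their cages. Tissue labels and titles name spleen whereas a protocol text names skeletal muscle. Markers of B cells, T cells and red pulp macrophages had mean levels of 9.54 to 10.01 in HFD-ED, 9.86 to 10.09 in HFD-CO and 9.94 to 10.05 in control mice, with Cd8a and Cd4 at the lower end of the array. Of 10 skeletal muscle markers, 9 had a mean under 7.5, where most probes without measurable signal lie.

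Levels are normalized log2 values, which ran from 6.95 to 14.79 on the whole array with a median of 7.14. The transformation used by the authors compresses the values of dim probes, so that a dim gene's difference is understated, and the number of arrays limits the precision. HFD-ED replicate 1 is described separately, a choice made with earlier results of these data known. It had the lowest level of its diet in 7 of the 9 measured genes. Diets were compared with limma, with Benjamini-Hochberg adjustment over all 45281 probes. All comparisons share mice, since each diet enters 2 of them. In whole spleen, fewer cells of a type and less RNA per cell cannot be told apart.

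Pf4 and Ppbp, which lie next to each other on chromosome 5, and Itga2b, F2rl2 and Alox12 on other chromosomes were among the genes with higher levels in HFD-ED mice, and the 120 bases before their start are shown to set these regions side by side. The start is that of the promoter table, which for Alox12 lies inside the annotated gene, so that the Alox12 window reaches into the gene's first bases. The sequences are from the RefSeq promoter table (GRCm38.p6), written 5′ to 3′ on the strand of the gene. Capitals mark GATAA, the core bound by GATA factors such as Gata1, and GGAAG, a core bound by Ets factors such as Fli1, each on either strand (TTATC and CTTCC on the other). The Pf4 window is chr5:90772315-90772434 on the plus strand, that of Ppbp chr5:90768398-90768517 on the plus strand, that of Itga2b chr11:102469884-102470003 on the minus strand, that of Alox12 chr11:70255371-70255490 on the minus strand and that of F2rl2 chr13:95696800-95696919 on the plus strand.
Pf4: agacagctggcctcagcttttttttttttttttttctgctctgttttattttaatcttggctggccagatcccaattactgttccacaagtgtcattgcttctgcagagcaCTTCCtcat
Ppbp: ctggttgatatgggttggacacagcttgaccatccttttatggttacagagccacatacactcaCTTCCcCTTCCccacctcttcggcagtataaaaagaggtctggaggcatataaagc
Itga2b: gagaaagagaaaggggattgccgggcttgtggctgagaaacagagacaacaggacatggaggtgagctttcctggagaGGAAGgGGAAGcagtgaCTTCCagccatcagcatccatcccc
Alox12: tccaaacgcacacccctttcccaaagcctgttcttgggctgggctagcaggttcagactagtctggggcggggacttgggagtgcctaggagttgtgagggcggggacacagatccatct
F2rl2: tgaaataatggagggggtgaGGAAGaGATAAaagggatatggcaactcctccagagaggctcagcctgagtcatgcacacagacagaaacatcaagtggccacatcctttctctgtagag

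In these windows CTTCC lies close before the start of Pf4, Ppbp has a pair of CTTCC in a row, and Itga2b has the core 3 times. F2rl2 was the single gene of the 5 shown with GATAA, with a GGAAG just before it. Over the full 250 bases before the start, 8 of the 10 genes had an entry in the table. GGAAG was present in all 8, Alox12 included, against 64.1% of 32851 promoters. GATAA was present in 3 of 8 (Gp1ba, Gp9 and F2rl2), against 22.6% of all promoters. For Gp1ba and Gp9, as for Alox12, the start in the table lies inside the annotated gene, and the Gp9 window lies wholly within the gene. A match of letters describes the window and is not a site of binding. Vwf and Itgb3 had no entry.

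The levels of 8 of the 9 measured genes were higher in HFD-ED than in HFD-CO mice without overlap between the 2 diets, by 1.16-fold for F2rl2 up to 1.8-fold for Ppbp. Itgb3 was the exception. None of the 9 passed an adjusted p of 0.05 in limma, which 0.00221% of all probes did in this comparison (1 of 45281), nor in a plain test of each probe. At an unadjusted p under 0.05 limma had 8 of the 9 higher, against 6.07% of all genes higher and 5.82% lower. Higher values without overlap occurred in 1.93% of all genes, and in 2.65% of the 7014 genes with a mean of 7.5 or more. Since the genes were proposed from this comparison, nothing is read from their share.

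**Figure D1:**
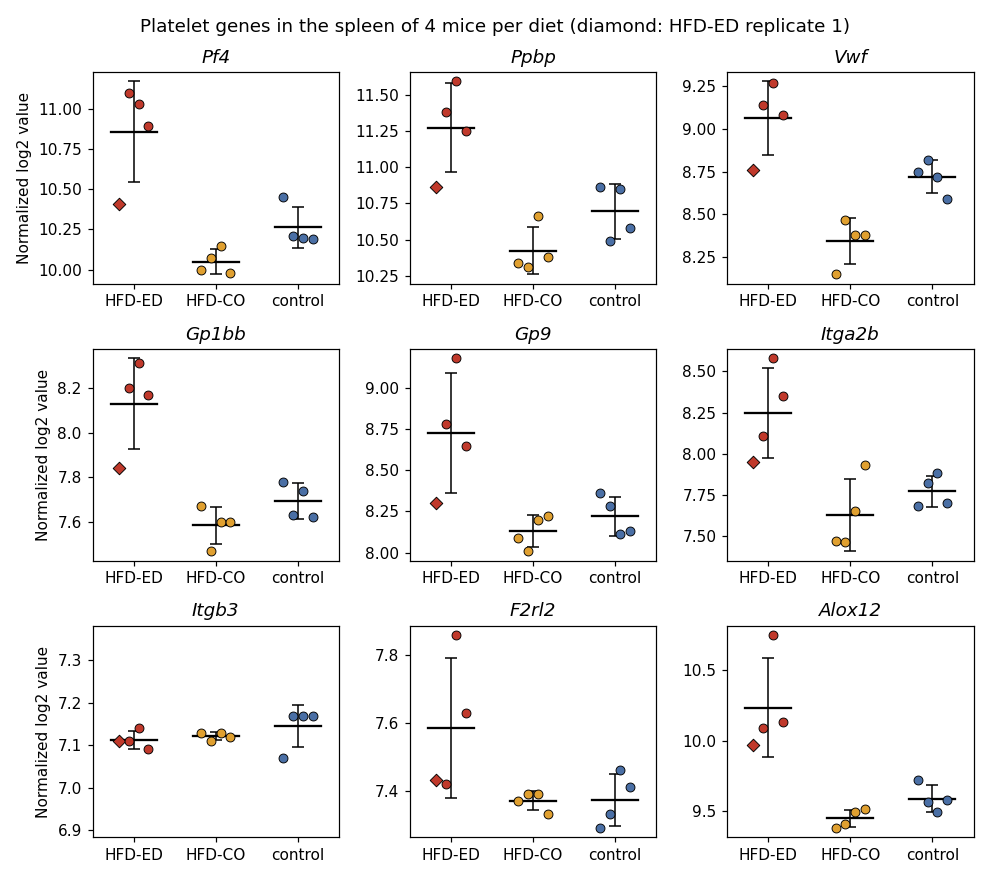
Normalized log2 levels of the 9 measured platelet genes (vertical axes, each with its own range) in HFD-ED, HFD-CO and control mice. Points are mice, the diamond is HFD-ED replicate 1, bars are the mean and whiskers the SD of 4 mice. The HFD-ED points lie above the HFD-CO points for all genes but Itgb3, and the diamond is the lowest HFD-ED point in 7 of the 9 panels.

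Among the proteins stored in platelet granules, Pf4 encodes platelet factor 4, a chemokine that binds heparin (chromosome 5, 90772435 to 90773383). Its levels were 10.41, 11.10, 11.03 and 10.89 in HFD-ED replicates 1 to 4, 10.003, 10.07, 10.15 and 9.98 in HFD-CO and 10.45, 10.21, 10.20 and 10.19 in control mice. HFD-ED replicate 1 lay below control replicate 1 and above the other 7 mice of both diets, while the other 3 HFD-ED mice exceeded all mice of both other diets. Pf4 averaged 10.86 ± 0.31 in HFD-ED and 10.05 ± 0.074 in HFD-CO mice (SD, n = 4 each), a difference of 0.81 with a 95% interval of 0.52 to 1.09 (limma adjusted p = 0.293). Control mice averaged 10.26 ± 0.12, and HFD-ED minus control was 0.60 (limma adjusted p = 0.252).

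Ppbp encodes pro-platelet basic protein, the precursor of neutrophil-attracting chemokines (chromosome 5, 90768518 to 90770063). Levels were 10.86, 11.38, 11.59 and 11.25 in HFD-ED, 10.34, 10.31, 10.66 and 10.38 in HFD-CO and 10.86, 10.49, 10.85 and 10.58 in control mice. HFD-ED replicate 1 was level with control replicates 1 and 3, and the other HFD-ED mice were higher than all mice of the other diets. The means were 11.27 ± 0.31 in HFD-ED and 10.42 ± 0.16 in HFD-CO mice, a difference of 0.85 (95% interval 0.52 to 1.18, limma adjusted p = 0.319). A second Ppbp probe gave a difference of 0.88 with a larger error (SE 0.229, against 0.148), and in it HFD-ED replicate 2 (10.62) was the lowest of its diet in place of replicate 1 (10.81). Against control (10.70 ± 0.19) the first probe differed by 0.57 (95% interval 0.25 to 0.90).

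Vwf encodes von Willebrand factor, the plasma protein that tethers platelets to collagen, which megakaryocytes and endothelial cells both make (chromosome 6, 125552948 to 125686679). Its levels were 8.76, 9.14, 9.27 and 9.08 in HFD-ED, 8.15, 8.47, 8.38 and 8.38 in HFD-CO and 8.75, 8.82, 8.72 and 8.59 in control mice. All HFD-ED mice exceeded all HFD-CO mice, and HFD-ED replicate 1 was within the control range. Vwf averaged 9.06 ± 0.22 in HFD-ED and 8.34 ± 0.14 in HFD-CO mice, a difference of 0.72 (95% interval 0.49 to 0.95) with the smallest adjusted p of the 9 genes in this comparison (limma, 0.236). Against control (8.72 ± 0.096) HFD-ED differed by 0.34 (95% interval 0.11 to 0.57). A second Vwf probe at the lower end of the array (mean 7.08) differed by 0.01 between HFD-ED and HFD-CO, and with the mean of both probes the Vwf difference was 0.37. The 16 endothelial markers had a median difference of -0.03 between HFD-ED and HFD-CO and of -0.09 between HFD-ED and control, with none of the 16 higher at an unadjusted p under 0.05 in either comparison. At that level 0 were lower than in HFD-CO and 5 lower than in control, against 7.55% of all genes lower than in control.

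Platelets bind von Willebrand factor through a complex of glycoproteins Ib and IX, of which Gp1bb encodes the beta chain of Ib and Gp9 the IX subunit. Gp1bb (chromosome 16, 18620319 to 18622403) measured 7.84, 8.20, 8.31 and 8.17 in HFD-ED, 7.67, 7.47, 7.60 and 7.60 in HFD-CO and 7.78, 7.63, 7.74 and 7.62 in control mice. All 4 HFD-ED mice stood above all 8 others. Its mean was 8.13 ± 0.20 in HFD-ED and 7.59 ± 0.085 in HFD-CO mice, a difference of 0.54 (95% interval 0.35 to 0.74, limma adjusted p = 0.308). HFD-ED minus control (7.69 ± 0.08) was 0.43 (95% interval 0.24 to 0.63, limma adjusted p = 0.231). Gp1bb overlaps Septin5 in the genome, and the Septin5 probe, with a mean of 7.23, differed by 0.03 (SE 0.0383) between HFD-ED and HFD-CO.

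Gp9 (chromosome 6, 87776131 to 87779786) had levels of 8.30, 8.78, 9.18 and 8.65 in HFD-ED, 8.09, 8.01, 8.20 and 8.22 in HFD-CO and 8.36, 8.28, 8.11 and 8.13 in control mice. HFD-ED replicate 1 was below control replicate 1 and the remaining HFD-ED mice were above every other mouse. The HFD-ED mean of 8.73 ± 0.36 stood against 8.13 ± 0.097 in HFD-CO mice, a difference of 0.60 (95% interval 0.27 to 0.92, limma adjusted p = 0.345). Against control mice (8.22 ± 0.12) the difference was 0.51 (95% interval 0.18 to 0.83).

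Itga2b and Itgb3 encode the 2 chains of the platelet fibrinogen receptor, integrin αIIbβ3. Itga2b (chromosome 11, 102453297 to 102469883), the chain restricted largely to this lineage, measured 7.95, 8.11, 8.58 and 8.35 in HFD-ED, 7.47, 7.46, 7.65 and 7.93 in HFD-CO and 7.68, 7.82, 7.88 and 7.70 in control mice. The HFD-ED mice were above all others, with HFD-ED replicate 1 only just above HFD-CO replicate 4. Means of 8.25 ± 0.28 in HFD-ED and 7.63 ± 0.22 in HFD-CO mice differed by 0.62 (95% interval 0.31 to 0.92, limma adjusted p = 0.342), and HFD-ED differed from control (7.77 ± 0.095) by 0.48 (95% interval 0.17 to 0.78). A second, dimmer Itga2b probe (mean 7.38) differed by 0.14 (SE 0.0441) between HFD-ED and HFD-CO, and with the mean of both probes the Itga2b difference was 0.38.

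Itgb3 (chromosome 11, 104608000 to 104670476) had its single probe at the lower end of the array, with 7.11, 7.11, 7.14 and 7.09 in HFD-ED, 7.13, 7.11, 7.13 and 7.12 in HFD-CO and 7.07, 7.17, 7.17 and 7.17 in control mice. HFD-ED minus HFD-CO was -0.01 (95% interval -0.06 to 0.04, limma adjusted p = 0.943). A probe at this level reports little about the amount of the transcript, so no difference in Itgb3 was detectable with it.

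F2rl2 encodes PAR3, a receptor that binds thrombin and on mouse platelets assists the signaling receptor PAR4 (chromosome 13, 95696920 to 95702768). The probe was dim, with 7.43, 7.42, 7.86 and 7.63 in HFD-ED, 7.37, 7.39, 7.39 and 7.33 in HFD-CO and 7.29, 7.33, 7.46 and 7.41 in control mice. HFD-ED replicates 3 and 4 had the highest levels of all mice, and replicates 1 and 2 were close to the mice on both other diets and below control replicate 3. Averages of 7.59 ± 0.21 in HFD-ED and 7.37 ± 0.03 in HFD-CO mice differed by 0.22 (95% interval 0.03 to 0.40, limma adjusted p = 0.487), and the difference from control (7.37 ± 0.074) was also 0.22. Without HFD-ED replicate 3 these differences were 0.13 and 0.12. F2rl2 lies within Iqgap2, whose probe differed by 0.06 (SE 0.0832) between HFD-ED and HFD-CO.

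Alox12, the 12-lipoxygenase of platelets and megakaryocytes (chromosome 11, 70241457 to 70255380), is the one enzyme among the 10 genes. Its levels were 9.97, 10.09, 10.75 and 10.13 in HFD-ED, 9.38, 9.41, 9.49 and 9.51 in HFD-CO and 9.72, 9.56, 9.49 and 9.58 in control mice. The 4 HFD-ED mice were above the other 8, replicate 1 included, and HFD-ED replicate 3 stood well above the rest of its diet. Alox12 averaged 10.24 ± 0.35 in HFD-ED and 9.45 ± 0.063 in HFD-CO mice, a difference of 0.79 or 1.73-fold (95% interval 0.49 to 1.09 on the log2 scale, limma adjusted p = 0.319). HFD-ED minus control (9.59 ± 0.097) was 0.65 or 1.57-fold (95% interval 0.35 to 0.95, limma adjusted p = 0.251). The other Alox12 probes, with means of 7.18 and 7.13 at the lower end of the array, differed by 0.05 and 0.01 between HFD-ED and HFD-CO, and with the mean of all Alox12 probes the difference was 0.28.

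Between HFD-ED and control mice the same 8 genes had higher means in HFD-ED, with differences from 0.22 (F2rl2) to 0.65 (Alox12). Limma called 0 of the 9 at an adjusted p of 0.05, as it did 0% of all probes, and had 8 higher at an unadjusted p under 0.05, against 5.69% of all genes. The plain test per probe called 0 as well. Only Itga2b, Gp1bb and Alox12 separated the 2 diets without overlap, 3 of 9 genes against 1.99% of all genes, and for the other 5 genes with higher means control mice reached into the HFD-ED range. The median difference of the 9 genes was 0.48, whereas it was 0.62 for HFD-ED against HFD-CO, and the medians over all genes were -0.0036 and -0.0026 in the same order.

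**Figure D2:**
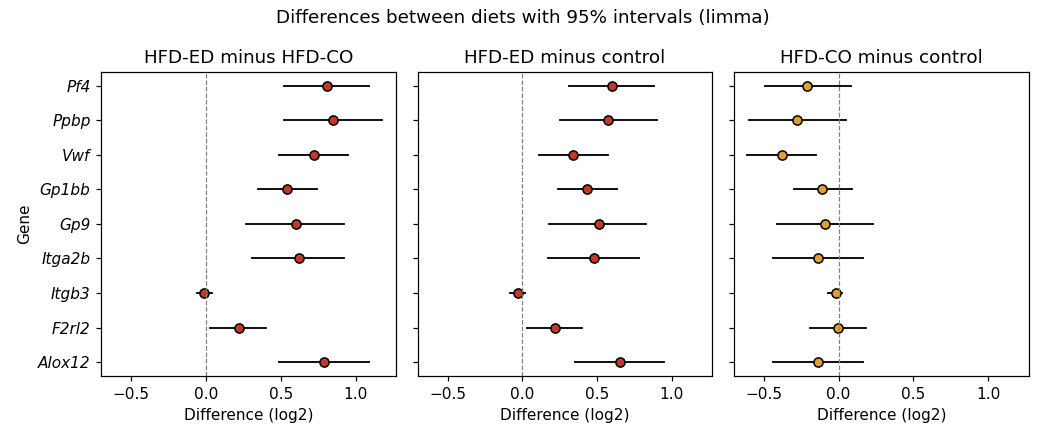
Fitted differences between diets on the log2 scale (horizontal axes) for the 9 measured platelet genes, with 95% limma intervals as lines. The intervals lie above 0 for 8 genes in both HFD-ED comparisons, and for HFD-CO minus control only that of Vwf lies away from 0, on the negative side.

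All 9 genes had lower means in HFD-CO than in control mice, by small amounts, with a median difference of -0.14. Limma gave an adjusted p of 1 for each, the plain test called 0 too, and 0% of all probes passed. Vwf had the largest difference, -0.38 (95% interval -0.61 to -0.15), and was the single gene of the 9 lower at an unadjusted p under 0.05, against 2.88% of all genes. Vwf and Pf4 were lower in HFD-CO without overlap, which 1.85% of all genes were. For Vwf the mice had 8.34 ± 0.14 in HFD-CO and 8.72 ± 0.096 in control. For Pf4 the difference was -0.21 (95% interval -0.49 to 0.08). The endothelial markers had a median difference of -0.04 in this comparison, with 3 of the 16 lower at an unadjusted p under 0.05, and their part in the Vwf difference was not tested. Alox12 differed by -0.14 between HFD-CO and control, with HFD-CO and control mice overlapping.

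The HFD-ED mice did not form an even group. HFD-ED replicate 1 had the lowest level of its diet in 7 of the 9 genes, the exceptions being Itgb3 and F2rl2, and it lay below the mean of the other 3 HFD-ED mice by 0.60 in Pf4 (a difference of -0.60), by 0.57 in Gp9 (-0.57) and by 0.55 in Ppbp (-0.55). The gap was -0.35 in Alox12. Replicate 1 was above all 4 HFD-CO mice in 8 of the 9 genes, while 18.9% of all genes were higher in it than in all 4 HFD-CO mice. The absence of overlap in these 8 genes already fixes that count, so nothing further is read from it. Replicate 1 was above all 4 control mice in 3 genes, Itga2b, Gp1bb and Alox12, against 19.2% of all genes. These are the genes without overlap between HFD-ED and control, so nothing further is read from that count either. HFD-ED replicate 3 had the highest level of all 12 mice in 7 genes and HFD-ED replicate 2 in Pf4.

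Averaged over the 9 genes, the deviation from the 12-mouse mean was 0.04 in HFD-ED replicate 1 and 0.34, 0.60 and 0.33 in replicates 2 to 4. It was -0.29, -0.28, -0.18 and -0.20 in HFD-CO and -0.03, -0.11, -0.07 and -0.14 in control mice. HFD-ED replicate 1 thus sat between the control mice and the other HFD-ED mice. Without HFD-ED replicate 1, a mouse singled out after its values were seen, 4 of the 9 genes passed an adjusted p of 0.05 in limma against HFD-CO, where 0.102% of all probes did. They were Pf4 (difference 0.96, adjusted p = 0.00416), Gp1bb (0.64, adjusted p = 0.00718), Vwf (0.82, adjusted p = 0.0123) and Ppbp (0.99, adjusted p = 0.0292). Against control, Pf4 (0.75, adjusted p = 0.00949) and Gp1bb (0.53, adjusted p = 0.0134) passed in limma, where 0.192% of all probes did. Leaving out HFD-ED replicate 3 instead made Alox12 the single gene past the threshold against HFD-CO (difference 0.62, limma adjusted p = 0.0432).

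Across mice, 8 of the 9 genes varied together. Their 28 pairs correlated with r from 0.66 to 0.96 over the 12 mice (median 0.89), and with r from 0.27 to 0.90 after the mean of each diet was subtracted (median 0.65). Pairs with Itgb3 had r from -0.29 to 0.09. These values describe 12 mice that share diets, arrays and normalization, and HFD-ED replicates 1 and 3 stand at the ends within their diet.

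The 10 genes whose pattern over the 12 mice was most like the mean of the 9 are named here. Of 19048 genes compared, 30 had r above 0.9, and the median r of all genes was -0.05. By list, the median r was 0.85 for neutrophil and 0.79 for red cell precursor markers, 0.43 for megakaryocyte transcription factors, 0.20 for further platelet receptors, -0.02 for granule genes, -0.06 for signaling genes, -0.10 for cytoskeletal genes and -0.55 for lymphoid and red pulp markers of spleen. Treml1, a receptor of platelet granules, came first (r = 0.97), and Gp5, glycoprotein V of the Ib-IX complex, had r = 0.95. Treml1 ran from 8.56 to 9.63 in HFD-ED, 8.04 to 8.31 in HFD-CO and 8.11 to 8.42 in control mice. Gp5 ran from 8.73 to 9.64 in HFD-ED, 8.24 to 8.58 in HFD-CO and 8.34 to 8.65 in control mice. Neither gene overlapped between HFD-ED and the other diets. Vcl, the adhesion protein vinculin, had r = 0.92. The other 7 of these 10 genes were Ext1 (0.96), a heparan sulfate polymerase, Neurl1a (0.95), the phosphatase Dusp8 (0.94), the leukotriene B4 receptor Ltb4r1 (0.93), the proteasome subunit Psmd1 (0.93), the sodium pump subunit Atp1b2 (0.93) and Fads1 (0.92), the delta-5 desaturase of polyunsaturated fatty acid synthesis. Fads1 had levels of 10.22 to 10.91 in HFD-ED, 10.12 to 10.28 in HFD-CO and 10.28 to 10.43 in control mice, with HFD-ED overlapping both.

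Other genes of platelets and megakaryocytes were taken by role. The 9 genes were proposed from their differences. These lists were written by role, though also with earlier results of the data known, so the sizes of the differences are not compared. Of the 18 receptors 8 had a mean under 7.5, as did 4 of 16 granule genes, 7 of 19 signaling genes, 1 of 13 cytoskeletal genes and 5 of 14 transcription factors. Any difference in such dim genes would be understated, and whether they have one was not tested. Of 18 further surface receptors measured, 4 were higher and 0 lower in HFD-ED than in HFD-CO at an unadjusted p under 0.05 in limma, against 6.07% and 5.82% of all genes, with a median difference of 0.04. None of the lists named here had a gene past the adjusted threshold in limma. Treml1 differed by 0.85 (SE 0.18, limma adjusted p = 0.337), Gp5 by 0.75 (SE 0.162), the glucose transporter Slc2a3 by 0.35 (SE 0.137) and the ADP receptor P2ry1 by 0.26 (SE 0.0988). Of the 16 granule genes 4 were higher at that level and 0 lower, with a median of 0.04 and the same shares of all genes, 6.07% and 5.82%. Selp, the adhesion protein P-selectin that reaches the surface of activated platelets, differed by 0.31 (SE 0.103, limma adjusted p = 0.456), with 7.54 to 8.10 in HFD-ED, 7.37 to 7.45 in HFD-CO and 7.34 to 7.53 in control mice. Coagulation factor F5 differed by 0.23 (SE 0.0804), Stx11 by 0.16 and Rab27b by 0.06. In both lists the large differences were thus those of a few genes.

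Of 19 signaling proteins and eicosanoid enzymes, 4 were higher and 0 lower than in HFD-CO at an unadjusted p under 0.05, against 6.07% and 5.82% of all genes, with a median difference of 0.01. Mrvi1, which restrains platelet calcium release, differed by 0.29 (SE 0.122), the thromboxane synthase Tbxas1 by 0.20 (SE 0.0873), the integrin activator Fermt3, kindlin-3, by 0.18 (SE 0.0636) and Rgs18 by 0.04. Tbxas1 makes thromboxane from a cyclooxygenase product of arachidonic acid. Of 13 cytoskeletal genes 3 were higher and 1 lower, with a median of -0.03. Tubb1, the tubulin of the platelet rim, differed by 0.74 (SE 0.216, limma adjusted p = 0.432), with 9.82 to 10.93 in HFD-ED, 9.27 to 9.60 in HFD-CO and 9.42 to 9.78 in control mice. Vcl differed by 0.51 (SE 0.122), Tuba4a by 0.09 and Wdr1 by -0.21 (SE 0.0965).

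Transcription factors of the megakaryocyte lineage, several of which red cell precursors share, had 5 of 14 higher and 1 lower in HFD-ED than in HFD-CO at an unadjusted p under 0.05, against 6.07% and 5.82% of all genes, with a median difference of 0.06. Nfe2, which drives platelet release and is also active in red cell precursors, differed by 1.52 (SE 0.571, limma adjusted p = 0.485), with 8.79 to 11.36 in HFD-ED, 8.31 to 9.94 in HFD-CO and 8.40 to 9.99 in control mice. Its diets overlapped widely. Tal1 differed by 1.31 (SE 0.516), Gfi1b by 0.76 (SE 0.29) and Gata1 by 0.23 (SE 0.0846). The factors as a list deviated by -0.17 in HFD-ED replicate 1 and by 0.25, 0.49 and 0.23 in replicates 2 to 4, so that replicate 1 lay within the range of the other diets, -0.21 to 0.03 in HFD-CO and -0.18 to 0.03 in control mice.

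Against control, the counts at an unadjusted p under 0.05 in limma were 3 higher and 1 lower in HFD-ED among the receptors, 2 higher and 1 lower among the granule genes, 0 higher and 3 lower among the signaling genes, 3 higher and 0 lower among the cytoskeletal genes, and 6 higher and 0 lower among the transcription factors. Of all genes 5.69% were higher and 7.55% lower at that level. Treml1 differed from control by 0.78 (limma adjusted p = 0.252) and Gp5 by 0.67 (limma adjusted p = 0.264). Between HFD-CO and control, 1 receptor, 2 granule genes and 2 signaling genes were lower at an unadjusted p under 0.05, against 2.88% of all genes, and none of the 5 lists had a higher one.

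**Figure D3:**
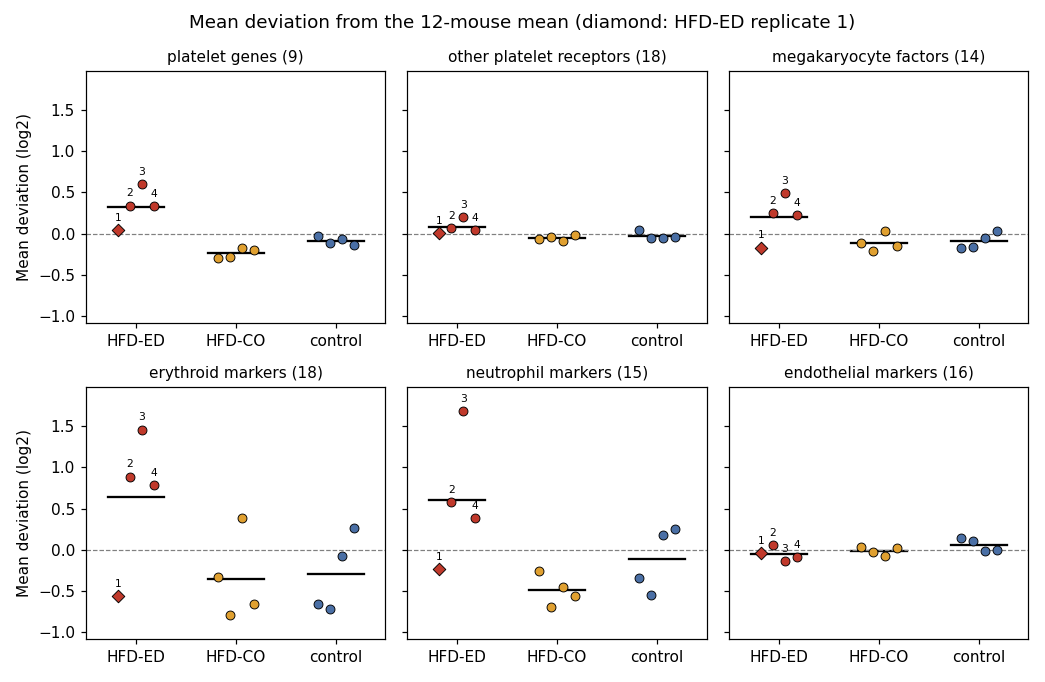
Mean deviation from the 12-mouse mean (vertical axis, log2) of the platelet genes, 2 further platelet lists and the red cell, neutrophil and endothelial markers, with the number of genes in each list in parentheses. Points are mice, bars diet means, and numbers give the HFD-ED replicate, with the diamond for replicate 1. In HFD-ED replicate 1 the red cell and neutrophil markers are below 0, at -0.56 and -0.23, while the platelet genes are at 0.04.

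Over the 12 mice, markers of red cell precursors and neutrophils correlated with the mean of the platelet genes (median r 0.79 and 0.85). Lymphoid and red pulp markers had a median r of -0.55. These r pool the 3 diets, so they hold the differences between diets as well as those between mice. The platelet genes were chosen as higher in HFD-ED, and no r within diets was computed for the lists. Within the control diet the order differed. Control replicate 4 had the highest red cell and neutrophil deviations of its diet and the lowest of the platelet genes (-0.14). The 18 red cell precursor markers deviated by -0.56, 0.89, 1.46 and 0.79 in HFD-ED, -0.33, -0.79, 0.39 and -0.66 in HFD-CO and -0.66, -0.72, -0.07 and 0.26 in control mice. Of these markers 12 were higher and 0 lower in HFD-ED than in HFD-CO at an unadjusted p under 0.05 in limma, against 6.07% and 5.82% of all genes. Their median difference was 1.09, with mean levels of 8.76 to 10.78 in HFD-ED, 8.52 to 9.71 in HFD-CO and 8.60 to 9.57 in control mice. The 15 neutrophil markers deviated by -0.23, 0.58, 1.68 and 0.39 in HFD-ED, -0.26, -0.69, -0.45 and -0.56 in HFD-CO and -0.34, -0.55, 0.18 and 0.25 in control mice. Their levels ran from 8.64 to 10.54 in HFD-ED, 8.18 to 8.61 in HFD-CO and 8.32 to 9.12 in control mice. Of them 12 were higher and 0 lower than in HFD-CO at that level, against the same shares of all genes, 6.07% and 5.82%. Against control fewer were higher at that level, 3 of the 15 neutrophil markers (median difference 0.66) and 9 of the 18 red cell markers (median difference 0.95). In both lists 0 were lower, and 0 were higher without overlap with control. Of all genes 5.69% were higher and 7.55% lower than in control. HFD-ED replicates 2, 3 and 4 were thus high for platelet, red cell and neutrophil genes alike, and in replicate 1 the markers of red cells and neutrophils were within the range of the control mice. Of the 11 lymphoid and red pulp markers, 8 had lower means in HFD-ED than in HFD-CO, 3 of them at an unadjusted p under 0.05, against 5.82% of all genes. Of these markers 9 had lower means than in control, again 3 at that level, against 7.55% of all genes. Their mean deviation was 0.00, 0.08, -0.38 and -0.09 in HFD-ED, 0.03, -0.05, -0.07 and 0.16 in HFD-CO and 0.08, 0.12, 0.01 and 0.10 in control mice, lowest in HFD-ED replicate 3, where most platelet genes were highest. Cd79b, a chain of the B cell receptor, differed by -0.22 from HFD-CO and by -0.34 from control (limma adjusted p = 0.504 and 0.304). The part of these cells in the platelet gene differences was not tested.

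Pancreatic markers, which can enter a spleen sample from the adjoining pancreas, had mean levels of 7.21 to 7.81 in HFD-ED, 7.17 to 12.95 in HFD-CO and 7.17 to 7.79 in control mice, the highest in HFD-CO replicate 4 and the next, 9.10, in HFD-CO replicate 1. Replicate 4 had the highest Itga2b (7.93), Alox12 (9.51) and Gp9 (8.22) levels of its diet and the lowest Pf4 (9.98) and F2rl2 (7.33) levels. Replicate 1 had the lowest mean deviation of the 9 genes (-0.29) and the lowest Vwf (8.15) and Alox12 (9.38) levels of its diet, but the highest Gp1bb level (7.67). Leaving out either mouse gave 0 platelet genes past an adjusted p of 0.05 in limma in all 3 comparisons, as with both. Within HFD-ED, replicate 1 had the highest pancreatic level, 7.81, against 7.27, 7.22 and 7.21 in replicates 2 to 4. Control replicate 2 had 7.79. The part of the pancreatic RNA in the platelet gene levels was not tested.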

How the data were processed

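Spleen RNA of 12 mice was hybridized to Illumina mouse whole-genome BeadChips, with a separate array for every animal. Bead signals were read out in GenomeStudio by the authors, who transformed them for stable variance and quantile normalized them in lumi (2.18.0 in the submitters' processing notes). Their deposited log2 values were used as they stand. No further normalization was made and no probe was left out. Of 45281 probes, 34885 had 1 gene symbol, 18 several and 10378 none in the platform annotation. Within diets, pairs of arrays had correlations of 0.971 to 0.995 over probes (which are no replicates), and 0 pairs were identical.

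A single model with a coefficient for each diet was fitted by limma 3.58.1 (lmFit, eBayes, two-sided tests) under R 4.3.3, and p-values were adjusted over all probes within a comparison. The fit was also run on simulated arrays with independent noise for each probe. Such arrays lack the correlation between genes seen here, so nothing is read from that run. Members and lists were chosen with earlier results of these data known. Named were all members, up to 4 genes with the smallest p against HFD-CO of each of 5 platelet lists, the 2 brightest of each list of another cell type, and the 10 genes most correlated with the members' mean. Lists of 20 surface receptors, 20 granule proteins, 20 signaling proteins, 14 cytoskeletal proteins and 16 transcription factors had 18, 16, 19, 13 and 14 genes measured. Promoters were searched over 250 bases before the start, and names and positions came from RefSeq (GRCm38.p6). Alternatives were a block for replicate number, a variance trend, robust variances, weighted arrays, dim probes removed, genes with 1 probe each or the mean of their probes, centred arrays, fits of 2 diets, a plain test per probe and each mouse left out. Real-time PCR and plasma data were not used here.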

Additional observations from a re-analysis of the deposited data

Results flagged for a closer look

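Control replicate 1 lay apart from its diet in 2 of the 27 groups of 4 mice examined, in that its distance to the nearest mouse, as a share of the whole range of the 4, was over Dixon's 95% limit. For Pf4 it had 10.45, against 10.19 to 10.21 in the other control mice, a gap of 0.914 of the range. This value is what made Pf4 overlap between HFD-ED and control mice, since HFD-ED replicate 1 had 10.41. For Itgb3 it had 7.07, against 7.17 in each of the other control mice (0.915 of the range), at the lower end of the array. Chance alone gives such a gap in about 1 group in 20.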

How the results depend on the processing

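With the replicate number as a block, 0 platelet genes passed an adjusted p of 0.05 in any comparison and the probes past it between HFD-ED and HFD-CO were 0, against 1 without the block. The numbers were not taken to pair the mice. Of 12 pairs of equal number 4 correlated above 0.1 (r from -0.26 to 0.37), and 3 mice were most like a mouse of equal number. With so few mice per diet this check cannot settle whether equal numbers share a processing step. That count of 1 was also 0 with a variance trend, without dim probes, with only the 2 diets compared and in the plain test, and HFD-ED against control gave 3 in place of 0 with 1 probe per gene. With each mouse left out in turn the probes past the threshold ranged from 0 to 46 for HFD-ED against HFD-CO and from 0 to 87 against control, and the platelet genes from 0 to 4 and from 0 to 2, the highest of each without HFD-ED replicate 1. The number of platelet genes past the threshold was 0 in each comparison under all other alternatives but the removal of HFD-ED replicate 3, which gave 1. With the mean of all probes of a gene, which adds probes at the lower end of the array, the median difference of the 9 genes was 0.38 against HFD-CO and 0.28 against control. The difference of F2rl2 between HFD-CO and control, -0.0021, turned to 0.0002 with array weights and ranged from -0.0284 to 0.0259 with each mouse left out. No other gene of the 9 changed direction.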

Other observations

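Hdc, the histamine-forming enzyme of basophils, mast cells and other myeloid cells, was 1 of 11 mast cell and basophil markers, 9 of which had a mean under 7.5. It ran from 8.37 to 9.90 in HFD-ED, 7.94 to 8.13 in HFD-CO and 8.02 to 8.33 in control mice, without overlap between HFD-ED and the other diets. Of all genes 1.93% were higher without overlap against HFD-CO and 1.99% against control. The HFD-ED mice were spread widely, with a mean of 8.79 ± 0.74 (SD), against 8.04 ± 0.084 in HFD-CO and 8.17 ± 0.14 in control mice. The difference was 0.75 (SE 0.284) against HFD-CO and 0.62 against control, with limma adjusted p = 0.487 and 0.495. Kit, the stem cell factor receptor, which is also on the list, differed by 0.09 (SE 0.0943) from HFD-CO, and 7 of the 11 markers had higher and 4 lower means in HFD-ED than in HFD-CO, with a median difference of 0.01. Among the neutrophil markers S100a8, a calcium-binding protein abundant in these cells, ran from 12.73 to 14.26 in HFD-ED, 12.39 to 12.73 in HFD-CO and 12.16 to 13.22 in control mice. Slc4a1, the anion exchanger of red cells, ran from 12.22 to 14.35 in HFD-ED, 11.52 to 13.45 in HFD-CO and 12.06 to 13.52 in control mice, with overlap between all 3 diets. Hba-a1, an alpha chain of haemoglobin whose probe lies near the upper end of the array, ran from 14.44 to 14.58 in HFD-ED, 14.47 to 14.62 in HFD-CO and 14.20 to 14.57 in control mice, and differed by -0.04 (SE 0.069) from HFD-CO.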
